A study of Homo sapiens with 12 samples.

Results

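The genes described here encode 9 proteins of the Polycomb repressive complexes: EZH1, EZH2, EED, SUZ12 and JARID2 of complex PRC2, and CBX2, CBX8, RING1 and BMI1 of complex PRC1. They were taken by name from the 58288 gene IDs of the count table, and all 9 passed the filter on low counts that left 13959 genes for testing. Polycomb proteins keep genes silent through chromatin. PRC2 places methyl groups on a lysine of histone H3: EZH2 or its paralog EZH1 is the enzyme, EED and SUZ12 hold the enzyme in its active form, and JARID2 is a cofactor that helps to bring the complex to chromatin. PRC1 attaches ubiquitin to histone H2A through a pair of RING finger proteins, here RING1 and BMI1, and its CBX subunits read the methyl mark that PRC2 writes. Developmental regulators such as the HOX genes and the cell cycle inhibitors of the INK4 locus are textbook targets of both complexes, and EZH2 is raised in many tumours.

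RNA was sequenced from HK2 cells, a widely used epithelial line from the proximal tubule of the human kidney that was immortalised with papillomavirus oncogenes. All cells carried a short hairpin RNA, directed either against FLCN, the tumor suppressor gene of Birt-Hogg-Dubé syndrome, or against no target (nontarget). Each hairpin was studied in cells of fewer than 30 passages (short-term) and in cells that the labels give as grown for 120 passages (long-term), while the study's methods set another limit, with 3 libraries in each of the 4 groups and no treatment beyond the hairpin and the time in culture. The study selected cells clonally after the hairpin was introduced, and which clone each library came from was not given in the sources used here, so the hairpin and the clone cannot be told apart. The labels call the libraries biological replicates without saying whether they came from separate clones or cultures, and p-values measure the spread between these libraries. The question behind the comparisons was how loss of FLCN changes kidney cells shortly after knockdown and after prolonged growth.

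Totals were 5825779 to 8991051 counts per library, and the counts behind a single value ran from 45 for CBX8 to 721 for EZH2, with a counting error (the square root of the count, as a share of the count) of 14.9% and 3.72%. Levels are given as CPM, the counts of a gene per 1000000 counts of the library after scaling by edgeR's TMM factors. FLCN itself stood at 12.7, 16.7 and 16.5 CPM in short-term nontarget libraries and at 5.95, 6.58 and 5.66 CPM after short-term knockdown, and at 9.92, 11.9 and 12.2 against 6.70, 6.31 and 7.97 CPM in long-term cells. It was lower in each knockdown library than in each nontarget library of the same time, with a log2 fold change of −1.33 (SE 0.179, edgeR quasi-likelihood adjusted p = 0.000112) short-term and −0.70 (SE 0.178, adjusted p = 0.00611) long-term. Of 12 proximal tubule markers, PAX8, GGT1 and SLC5A2 were expressed, while LRP2, SLC22A6 and HNF4A had 0 counts in the 12 libraries. Of 6 epithelial markers, KRT8 averaged 1680 to 2150 CPM over the groups, while CDH1 stood at 0 to 0.739 CPM. KRT18 averaged 645 to 876 CPM and EPCAM 20.7 to 50.7 CPM. KRT19 stood at 32.8 and 32.6 CPM in short-term but 5.07 and 4.19 CPM in long-term cells. CDH16 went the other way with time, from 11.3 to 18.6 CPM in nontarget and from 17.5 to 50.8 CPM in knockdown cells.

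EZH1, EZH2 and SUZ12 are shown first by the stretches of promoter that hold a match to an E2F-type motif, since E2F factors are known regulators of PRC2 genes. RefSeq promoter windows of 300 bases (250 before and 50 after the transcription start, build GRCh38.p14) matched 7 of the 9 genes, all but CBX2 and CBX8, in 10 windows. Windows were searched on both strands for TTTGGCGC, TTTCGCGC, TTTCCCGC and TTTGCCGC. In the sequences below, read 5′ to 3′ along the strand of the gene, the match is in capitals.
EZH2, chr7:148884262-148884340 (minus strand): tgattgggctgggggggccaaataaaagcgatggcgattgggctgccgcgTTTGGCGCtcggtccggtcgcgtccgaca
SUZ12, chr17:31936768-31936875 (plus strand): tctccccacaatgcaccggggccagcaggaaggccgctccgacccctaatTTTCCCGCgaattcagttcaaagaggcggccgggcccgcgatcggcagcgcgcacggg
EZH1, chr17:42745098-42745205 (minus strand): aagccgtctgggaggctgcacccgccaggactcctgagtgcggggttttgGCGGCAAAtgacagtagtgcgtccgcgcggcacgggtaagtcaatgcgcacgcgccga
The match in EZH2 lies 1 base past the first transcribed base, that in SUZ12 begins 189 bases before it, and that in EZH1 is on the opposite strand, 115 bases before it. These 3 windows were the only ones of the 10 with a match, against 3.31% of the 35116 windows of all genes. A match describes the letters and does not show that a factor binds there, and the windows of EED, JARID2, RING1 and BMI1 held none of these letters.

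EZH2, the main methyltransferase of PRC2, was the member with the clearest difference between groups: its mean was 55.6 CPM in long-term nontarget cells and 76.2 to 80.3 CPM in the other 3 groups. The gene lies on chromosome 7 (chr7:148807383-148884321, minus strand, GRCh38, 22 merged exons). Its libraries measured 75.6, 79.3 and 79.0 CPM in short-term nontarget cells and 80.5, 78.5 and 69.7 CPM after short-term knockdown. In long-term cells they measured 52.4, 53.9 and 60.6 CPM without and 83.3, 81.3 and 76.3 CPM with knockdown. Each of the 3 long-term nontarget libraries was thus below each of the other 9, and the ranges of the other groups overlapped.

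With prolonged growth EZH2 fell in nontarget cells to 0.714 of its short-term level (log2 fold change −0.49, SE 0.101, 95% interval −0.70 to −0.27, edgeR adjusted p = 0.00531). In knockdown cells the same comparison gave a log2 fold change of 0.07 (95% interval −0.13 to 0.28). Long-term knockdown cells held 1.44 times the EZH2 of long-term nontarget cells (log2 fold change 0.53, SE 0.100, adjusted p = 0.00061), whereas the short-term difference was −0.03 (95% interval −0.24 to 0.18). The effect of knockdown differed between the times by 0.56 on the log2 scale (interaction, SE 0.141, adjusted p = 0.0122). The long-term nontarget libraries enter 3 of these comparisons, so the values are not independent of each other. These calls did not depend on 1 library: no fit that left out a library lost any of them.

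Genes around EZH2 had medians on the same side of 0 as EZH2 in both comparisons. For its 40 closest tested neighbours the median log2 fold change was 0.17 after long-term knockdown, where 9 were called higher and 0 lower, and −0.18 in ageing nontarget cells, where 0 were called higher and 1 lower. Over the 672 tested genes of chromosome 7 the medians were 0.25 and −0.22, and 29.9% of them were called higher after long-term knockdown, against 13.7% of all genes, and 11.8% lower in ageing nontarget cells, against 4.38%. EZH2 exceeded 30 of its 40 neighbours in the long-term knockdown comparison and was below 35 of them in ageing nontarget cells. Summed markers of other cell types also differed in long-term nontarget cells, each list mainly through a single gene. The summed level of 6 stroma and blood markers was 6.81 to 9.83 CPM there. It was 24.7 to 30.7 and 19.3 to 29.5 CPM in short-term nontarget and knockdown cells and 10.3 to 15.0 CPM after long-term knockdown. LUM averaged 0.96 CPM in long-term nontarget cells against 23.5, 23.1 and 12.1 CPM in these groups, with PTPRC and HBB at 0. PDGFRB went the other way and was highest in long-term nontarget cells, at 7.41 CPM against 3.99, 2.19 and 0.658 CPM. The sum of 7 markers of the loop and distal nephron was 2.95 to 6.08 CPM there and at most 1.37 CPM elsewhere, with UMOD and SLC12A1 at 0. CALB1 made up most of it, at 4.07 CPM against 1.04, 0.108 and 0.0385 CPM. SLC12A3 was highest after short-term and ATP6V1B1 after long-term knockdown. The part of the chromosome-wide difference or of these markers in the EZH2 result was not tested. In bulk RNA, fewer cells with a transcript and less transcript per cell cannot be told apart.

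**Figure D1:**
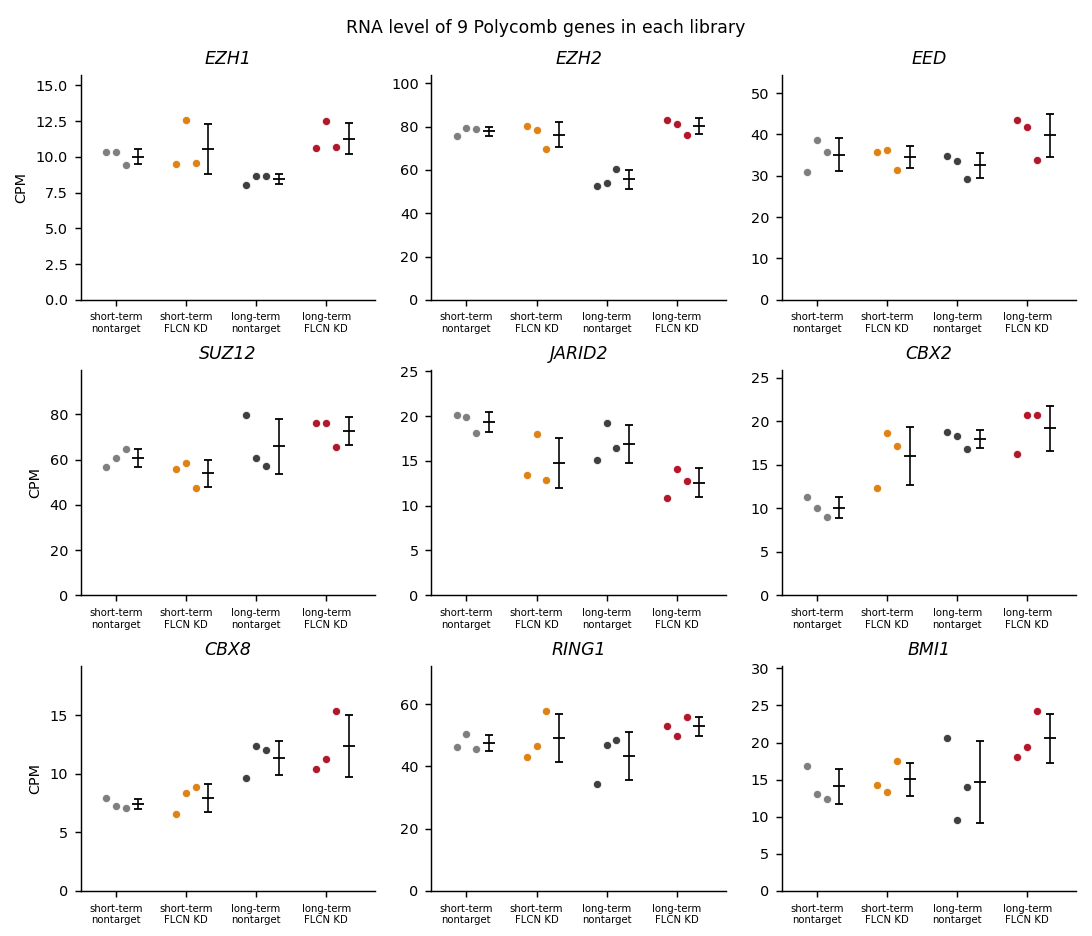
CPM (y axis, from 0) of each of the 9 Polycomb genes in the 12 libraries. Points are libraries by group and the bars beside them give the mean and SD of 3; EZH2 is lowest in the 3 long-term nontarget libraries (52.4 to 60.6 CPM), and CBX2 is lowest in the 3 short-term nontarget libraries (8.96 to 11.3 CPM).

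EZH1, the paralog of EZH2 that is known to prevail in cells that have stopped dividing, was expressed weakly. Its levels were 10.3, 10.3 and 9.43 CPM in short-term nontarget, and 9.49, 12.6 and 9.56 CPM in short-term knockdown libraries, with 8.04, 8.67 and 8.67 CPM in the long-term nontarget libraries beside 10.6, 12.5 and 10.7 CPM in those with knockdown. The long-term groups did not overlap, but the difference missed the threshold (log2 fold change 0.41, 95% interval 0.06 to 0.76, adjusted p = 0.0723), and in the 3 other pairwise comparisons the groups were closer, with log2 fold changes from −0.24 to 0.09. Per kilobase of exon EZH2 stood 12.1 ± 0.801 (SD, n = 3) times higher than EZH1 in short-term nontarget cells. This ratio was 11.3 ± 1.73 after short-term knockdown, 10.2 ± 0.600 and 11.1 ± 1.02 in long-term cells without and with knockdown, and among these groups only short-term and long-term nontarget libraries did not overlap (11.4 to 13.0 against 9.60 to 10.8). Over the 12 libraries the log2 levels of EZH1 and EZH2 had a Pearson r of 0.76, a description of libraries that fall into 4 groups.

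SUZ12, the subunit on which the assembly of PRC2 rests, rose with prolonged growth in knockdown cells. It measured 55.9, 58.6 and 47.4 CPM in short-term and 76.4, 76.0 and 65.6 CPM in long-term knockdown libraries, which did not overlap (difference 0.43 on the log2 scale, SE 0.131, with an edgeR adjusted p of 0.0223). In nontarget cells it measured 56.6, 60.6 and 64.9 CPM short-term and 79.7, 60.9 and 57.1 CPM long-term, and the first of the long-term libraries stood well above the other 2. The ageing difference there was 0.12 (95% interval −0.16 to 0.40), and the difference between the 2 ageing effects, 0.31, did not pass the test (95% interval −0.08 to 0.70). The rise in knockdown cells was lost, at adjusted p = 0.0833 without replicate 3 of the short-term knockdown cells and at 0.0862 and 0.0777 without replicates 1 and 2 of the long-term knockdown cells. With the replicate number as a block it was called (edgeR adjusted p = 0.00568). Of 4 cell cycle genes, PCNA, a replication gene, rose in the same comparison (log2 fold change 0.44, adjusted p = 0.00206), while MKI67, MCM2 and E2F1 were not called there (adjusted p = 0.301, 0.266 and 0.629). Over the 12 libraries the r of SUZ12 was 0.88 with PCNA, 0.49 with MKI67, −0.01 with MCM2 and −0.37 with E2F1. On chromosome 17, where SUZ12 lies (chr17:31937018-32001045, plus strand), the median of 833 tested genes was 0.21 in that comparison and that of its 40 neighbours 0.12. What these have to do with the SUZ12 value was not tested.

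EED, the subunit that binds the methyl mark and stimulates the enzyme, was called in none of the comparisons. It measured 30.8, 38.7 and 35.8 CPM in short-term nontarget, and 35.8, 36.3 and 31.5 CPM in short-term knockdown libraries. In long-term cells it measured 34.8, 33.6 and 29.2 CPM without and 43.6, 41.8 and 33.9 CPM with knockdown. The groups of each pairwise comparison overlapped, and the largest pairwise difference was the long-term one, 0.29 on the log2 scale (95% interval 0.02 to 0.57). Without replicate 3 of the long-term knockdown cells that difference was 0.39 and passed (adjusted p = 0.0331).

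JARID2, a cofactor without enzyme activity of its own, was the only member with lower fitted values after knockdown at both times. Its libraries measured 20.1, 19.9 and 18.1 CPM in short-term nontarget and 13.4, 18.0 and 12.9 CPM in short-term knockdown cells, and 15.1, 19.2 and 16.4 against 10.9, 14.1 and 12.7 CPM in long-term cells. Knockdown and nontarget libraries did not overlap at either time, yet neither difference passed the threshold (short-term log2 fold change −0.39, 95% interval −0.73 to −0.05, adjusted p = 0.155, and long-term −0.43, 95% interval −0.78 to −0.09, adjusted p = 0.0577). With the replicate number as a block the long-term difference passed (−0.44, adjusted p = 0.0211). It also passed without replicate 1 of the nontarget cells (adjusted p = 0.0477) or replicate 2 of the knockdown cells (adjusted p = 0.0475). Its 40 neighbours on chromosome 6 had medians of −0.05 and 0.01, and 35 and 33 of them lay above JARID2.

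CBX2 and CBX8, chromodomain subunits that read the methyl mark, lie next to each other on chromosome 17 (chr17:79778132-79787983, plus strand, and chr17:79792132-79801683, minus strand). Both had their lowest mean in short-term nontarget cells. CBX2 measured 11.3, 10.0 and 8.96 CPM there and 12.3, 18.6 and 17.2 CPM after short-term knockdown, against 18.8, 18.3 and 16.8 CPM in long-term nontarget and 16.2, 20.7 and 20.7 CPM in long-term knockdown libraries. The short-term nontarget libraries lay below all 9 others, and the other 3 groups overlapped. CBX2 rose 1.57-fold with short-term knockdown (0.65 on the log2 scale, SE 0.180, edgeR quasi-likelihood adjusted p = 0.0268) and 1.77-fold with prolonged growth of nontarget cells (0.82, SE 0.177, adjusted p = 0.00687). Long-term knockdown cells did not differ detectably from long-term nontarget cells (0.09, 95% interval −0.26 to 0.44), and the difference between the knockdown effects at the 2 times, −0.56 (95% interval −1.08 to −0.04), missed the threshold (adjusted p = 0.15). The short-term call rests on few libraries: it was lost without replicate 2 or 3 of the nontarget cells (adjusted p = 0.0882 and 0.111) and without replicate 2 or 3 of the knockdown cells (0.122 and 0.0714), while the ageing call held in each of the 6 such fits.

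CBX8 measured 7.93, 7.29 and 7.07 CPM in short-term nontarget and 6.58, 8.33 and 8.85 CPM in short-term knockdown libraries. In long-term cells it measured 9.65, 12.4 and 12 CPM without and 10.4, 11.3 and 15.4 CPM with knockdown, so that all long-term libraries were above all short-term ones. The ageing difference passed the threshold in knockdown cells (log2 fold change 0.64, SE 0.192, adjusted p = 0.0195) and not in nontarget cells (0.61, 95% interval 0.20 to 1.02, adjusted p = 0.0678), and the 2 differed by 0.03 (95% interval −0.54 to 0.61). The call in knockdown cells was lost without replicate 1 of the short-term knockdown cells (adjusted p = 0.0998), without replicate 3 of the long-term knockdown cells (0.0884) and where the fit held only the 2 groups compared (0.0545). In that last kind of fit the value in nontarget cells was called (adjusted p = 0.0482). With the replicate number as a block the call in knockdown cells held (edgeR adjusted p = 0.0072).

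The genes around both CBX genes had medians above 0 in the ageing comparisons. For their 40 nearest tested genes the median log2 fold change was 0.18 in ageing nontarget cells, where 3 and 4 of those around CBX2 and CBX8 were called higher and 0 lower, and CBX2 was above all 40 and CBX8 above 37 of them. Of the tested genes of chromosome 17, 3.6% were called higher there, against 3.17% of all genes. In ageing knockdown cells the medians were 0.34 around CBX2 and 0.33 around CBX8, where 12 and 11 were called higher and 2 lower, and 28.1% of the tested genes of the chromosome were called higher, against 11.5% of all genes. CBX8 was above 33 of its neighbours there and CBX2, at 0.26, below 28. The part of the chromosome in these results was not tested.

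RING1, a ubiquitin ligase of PRC1, had the highest level of the 9 genes per kilobase and passed the test in no comparison of the fit without a block. It measured 46.2, 50.4 and 45.7 CPM in short-term nontarget, and 42.9, 46.6 and 57.9 CPM in short-term knockdown libraries. In long-term cells it measured 34.4, 46.8 and 48.5 CPM without and 52.9, 49.7 and 56.0 CPM with knockdown. The long-term groups did not overlap, with a log2 fold change of 0.29 (95% interval 0.00 to 0.58, adjusted p = 0.129), which passed only with the replicate number as a block (0.30, adjusted p = 0.0421), and the first long-term nontarget library was well below the other 2.

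BMI1, the partner that activates the ligase and a known repressor of the INK4 locus, varied widely between the long-term nontarget libraries. It measured 16.8, 13.1 and 12.4 CPM in short-term nontarget and 14.3, 13.3 and 17.5 CPM in short-term knockdown libraries. Its long-term nontarget libraries ran from 9.60 to 20.6 CPM, and its long-term knockdown libraries measured 18.0, 19.4 and 24.3 CPM. The long-term groups overlapped through the nontarget library at 20.6 CPM (log2 fold change 0.46, 95% interval 0.00 to 0.93, adjusted p = 0.127), and without that library, replicate 1, the difference was 0.78 and passed (adjusted p = 0.0109), as it did with the replicate number as a block (0.48, adjusted p = 0.0485) and with no filter on low counts (0.46, adjusted p = 0.0497). In ageing knockdown cells the groups did not overlap, with a log2 fold change of 0.45 (adjusted p = 0.149). BMI1 shares 1000 of its 4283 exon bases with the readthrough gene COMMD3-BMI1, which had 0 counts in the 12 libraries, and how reads in the shared exons were counted is not stated.

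**Figure D2:**
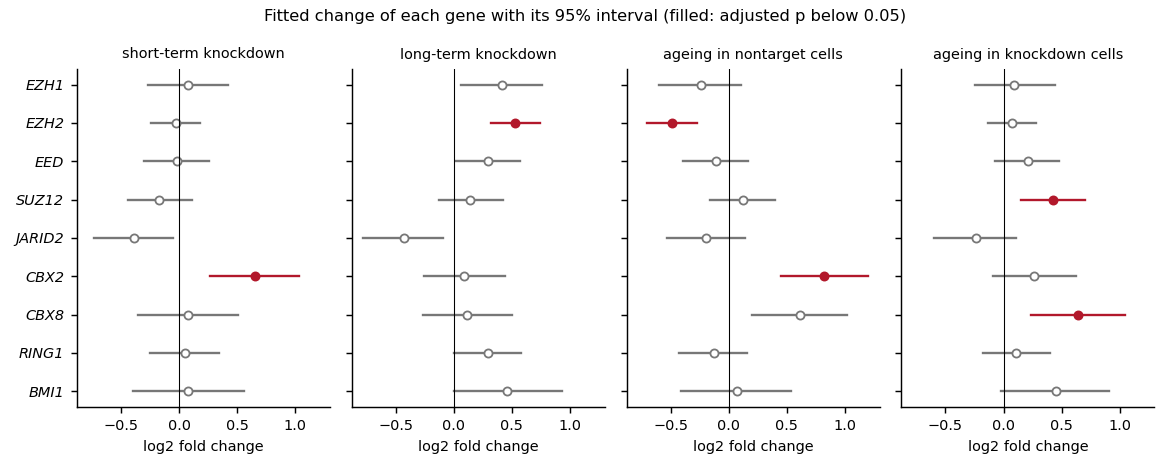
Fitted log2 fold change (x axis) of each Polycomb gene in the 4 pairwise comparisons, with lines for the 95% interval; filled points passed the test at an adjusted p below 0.05. EZH2 (0.53) stands alone among calls after long-term knockdown in this fit without a replicate block, and CBX2 is called after short-term knockdown (0.65) and in ageing nontarget cells (0.82).

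Calls among the 9 members were few, and their counts are given beside the share of all tested genes that was called. Short-term knockdown raised 1 member (CBX2) and lowered 0, where 5.62% of the 13959 tested genes were called higher and 4.71% lower. Long-term knockdown raised 1 (EZH2) and lowered 0, against 13.7% and 15.8% of all genes. With the replicate number as a block 4 members were called there, EZH2, RING1 and BMI1 higher and JARID2 lower, and 17.4% of all genes were called higher and 19.4% lower in that fit. Ageing raised 1 (CBX2) and lowered 1 (EZH2) in nontarget cells, where 3.17% and 4.38% were called, and raised 2 (SUZ12 and CBX8) and lowered 0 in knockdown cells, where 11.5% and 15.2% were called. The interaction was called higher for 1 member (EZH2) and lower for 0, against 4.98% and 8.43%. The median log2 fold change of the 9 was 0.05 short-term, 0.29 long-term, −0.11 in ageing nontarget cells and 0.21 in ageing knockdown cells, beside medians of all genes within 0.0126 of 0. DESeq2 called as many members as edgeR in each direction of each comparison. In the long-term comparison 5 of the 9 had an unadjusted p below 0.05, beside 5441 of all tested genes.

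Scaled to exon length, the members kept nearly one order in all groups. In short-term nontarget cells RING1 (26.1 CPM per kilobase) stood above EZH2 (17.2), SUZ12 (9.27) and EED (5.00), each apart from the next. BMI1 (3.29) and JARID2 (3.22) overlapped, as did CBX8 and CBX2 (both 1.78), and EZH1 was last at 1.43. In long-term nontarget cells EZH2 came down to 12.3 and its range overlapped that of SUZ12 (10.1), which it did not do in any other group. JARID2 moved from the sixth place to the eighth in long-term knockdown cells, where it had 2.09 and the CBX genes 3.37 and 2.97. The ratio of CBX2 to CBX8 per kilobase was 0.994 ± 0.0612 in short-term nontarget cells and 1.47 ± 0.140 after short-term knockdown (SD, n = 3), and 1.18 ± 0.217 and 1.15 ± 0.180 in long-term cells without and with knockdown.

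Some genes had profiles much like those of the called members. By Pearson correlation of log2 CPM over the 12 libraries, among 9368 or 9369 genes averaging 10 CPM or more, the nearest to EZH2 were MPHOSPH8 (r = 0.93), EHHADH (0.91) and STK17A (0.91). BRIP1 (0.98), HAUS1 and THAP12 (both 0.96) were nearest to SUZ12. PPP2R5D (0.91), DRAM1 (0.90) and TP53BP2 (0.88) were nearest to CBX2, and SRRM3 (0.96), CABIN1 and SCAMP3 (both 0.95) to CBX8. The neighbours CBX2 and CBX8 had an r of 0.78 with each other. The libraries share their group, and these are the highest of 9368 or 9369 correlations over 12 points.

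EZH2 is a known target of E2F factors and follows cell division, so cell cycle genes are given beside it. The group mean of E2F1 was highest in long-term nontarget cells, where that of EZH2 was lowest, although single libraries overlapped with those of the short-term groups: E2F1 measured 79.2, 89.4 and 116 CPM in long-term nontarget and 44.4, 51.2 and 75.5 CPM in long-term knockdown libraries. This difference was called (log2 fold change −0.74, SE 0.215, adjusted p = 0.0164 by edgeR) and was lost without replicate 3 of the nontarget cells (0.0766) or replicate 1 or 2 of the knockdown cells (0.0762 and 0.0622). In ageing nontarget cells, where EZH2 fell, E2F1 was not called (0.39, 95% interval −0.07 to 0.84, adjusted p = 0.359). Across the 12 libraries the r of EZH2 with E2F1 was −0.70, and with the proliferation genes MKI67, PCNA and MCM2 it was 0.20, −0.07 and −0.52. MKI67 and MCM2 were called in none of the comparisons, with MKI67 at 246 ± 16.2 CPM in long-term nontarget and 283 ± 54.2 CPM in long-term knockdown cells (SD, n = 3). Of 34 E2F and cell cycle genes, all tested, 4 were called higher and 4 lower after long-term knockdown, beside 13.7% and 15.8% of all genes, and 3 higher and 0 lower in ageing nontarget cells, beside 3.17% and 4.38%.

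**Figure D3:**
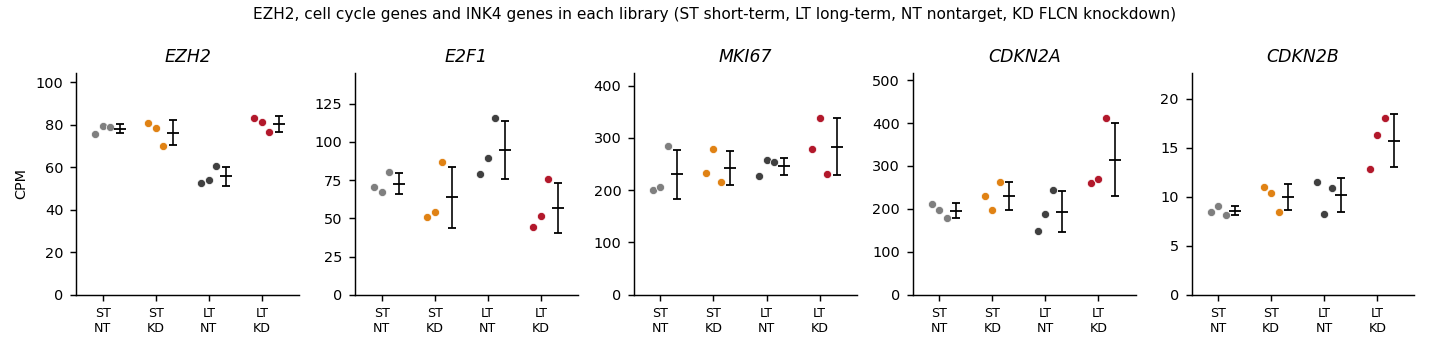
CPM (y axis, from 0) of EZH2, E2F1, MKI67, CDKN2A and CDKN2B in the 12 libraries, with the mean and SD of 3 beside the points. EZH2 is lowest and E2F1 highest on average (94.8 CPM) in long-term nontarget cells, and CDKN2A (mean 315 CPM) and CDKN2B (mean 15.8 CPM) are highest on average in long-term knockdown cells.

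Other subunits of the same complexes were counted in the same fit. Among 47 further genes of PRC2, PRC1 and the deubiquitinase PR-DUB, which removes the PRC1 mark, 44 were tested, and EZHIP, AUTS2 and ASXL3 were not. PHF19, a PRC2 cofactor that binds another histone mark, fell at both times: from 160, 149 and 162 to 100, 106 and 122 CPM short-term (log2 fold change −0.52, SE 0.107, edgeR quasi-likelihood adjusted p = 0.004) and from 142, 130 and 147 to 60.9, 58.7 and 73.1 CPM long-term (−1.12, SE 0.110, adjusted p = 6.02e-07). The long-term fall was the larger by 0.60 on the log2 scale (interaction adjusted p = 0.0127). PHC2, a PRC1 subunit that joins complexes into larger assemblies, fell from 74.5, 70.2 and 62.4 to 43.3, 42.5 and 44.4 CPM short-term (−0.67, adjusted p = 0.000766) and from 57.0, 56.2 and 57.6 to 33.9, 28.9 and 37.7 CPM long-term (−0.77, adjusted p = 5.97e-05). For both genes the knockdown and nontarget libraries of a time did not overlap.

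The other short-term calls were weaker. RBBP4, a histone chaperone of PRC2, fell at both times (log2 fold changes −0.33 and −0.41), but the short-term call was lost in each of the 6 fits without 1 library, with adjusted p up to 0.124. L3MBTL2, of a variant PRC1, fell from 27.2 ± 3.06 to 20.1 ± 1.66 CPM short-term (SD, n = 3; −0.44, adjusted p = 0.0354), a call lost without replicate 1 or 3 of the nontarget cells (0.176 and 0.0955) or replicate 1 or 2 of the knockdown cells (0.153 and 0.0656). In all, 0 of the 44 were called higher and 4 lower after short-term knockdown, beside 5.62% and 4.71% of all tested genes. RBBP4 and L3MBTL2 were also lost short-term with no filter on low counts (0.0547 and 0.0726), and L3MBTL2 with only the 2 groups in the fit (0.0541).

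After long-term knockdown 7 were called higher and 4 lower, beside 13.7% and 15.8% of all tested genes. CBX7, a CBX paralog that reads the same mark, rose from 1.47, 2.01 and 0.647 to 2.89, 3.96 and 3.73 CPM (log2 fold change 1.36, SE 0.411, adjusted p = 0.018), on 29 and 74 counts per group, and lost its call without replicate 3 of the nontarget (0.0935) or replicate 2 of the knockdown cells (0.0625). PCGF1, the BMI1 homologue of a variant PRC1, rose from 5.98 ± 0.669 to 10.7 ± 2.53 CPM (SD, n = 3; 0.85, adjusted p = 0.00376). MBD5, a PR-DUB partner, rose by 0.79 (adjusted p = 0.00181), and DCAF7, FOXK2 and ASXL2 by 0.58, 0.45 and 0.43 (adjusted p = 5.58e-05, 0.00559 and 0.00384), calls that held without each library in turn. The remaining pair was weaker. PHC3 rose by 0.50 (adjusted p = 0.022) with groups that overlapped, and lost its call without replicate 2 or 3 of the nontarget cells (0.0641 and 0.0922) or replicate 1 or 2 of the knockdown cells (0.0586 and 0.144). PCGF3 fell by 0.37 (adjusted p = 0.0427), and lost its call without replicate 1 or 2 of the nontarget cells (0.0644 and 0.131) or of the knockdown cells (0.213 and 0.0709), with no filter on low counts (0.0648) and with only the 2 groups in the fit (0.0819).

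With prolonged growth, 0 of these 44 genes were called in nontarget cells by edgeR, where 2 had an unadjusted p below 0.05, and 0 by DESeq2, beside 3.17% of all genes called higher and 4.38% lower by edgeR. In knockdown cells 5 were called higher and 4 lower, beside 11.5% and 15.2% of all genes. DCAF7, a PRC1-associated scaffold, rose from 125, 127 and 131 to 206, 208 and 194 CPM (log2 fold change 0.66, SE 0.0862, adjusted p = 1.8e-05). FOXK2 and YAF2 each rose by 0.62 and L3MBTL2 by 0.58, while PHF19 fell by 0.77. DCAF7 and FOXK2 lie on chromosome 17, whose median in that comparison was 0.21.

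Of 15 genes that oppose Polycomb, all tested, 2 were called after long-term knockdown, both higher, beside 13.7% of all genes called higher and 15.8% lower. KMT2A, a methyltransferase of active HOX genes, measured 54.3, 59.0 and 56.9 CPM in long-term nontarget and 121, 148 and 101 CPM in long-term knockdown libraries (log2 fold change 1.12, SE 0.164, adjusted p = 5.61e-05 by edgeR), and 70.9, 64.3 and 57.2 CPM in short-term knockdown libraries. The change with knockdown was larger long-term by 0.98 (interaction adjusted p = 0.00815). KMT2C, an enhancer methyltransferase on chromosome 7, rose with long-term knockdown by 0.64 (adjusted p = 0.00403). Its fall in ageing nontarget cells (−0.54, adjusted p = 0.0383) was lost without replicate 3 of the short-term nontarget cells, which stood at 42.9 CPM beside 29 in each of the other 2 (adjusted p = 0.227), and without replicate 1, 2 or 3 of the long-term nontarget cells (0.117, 0.0938 and 0.0555).

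HOX genes, which Polycomb is known to silence outside their domains, were called higher more often than lower after long-term knockdown. Of 39 HOX genes 27 were tested, and 12 were called higher and 1 lower, with a median log2 fold change of 0.44, beside 13.7% and 15.8% of all genes called. HOXA5 measured 15.8, 11.5 and 17.9 CPM in long-term nontarget and 74.9, 70.0 and 87.2 CPM in long-term knockdown libraries (2.35, SE 0.163, adjusted p = 1.2e-08 by edgeR), and HOXA4 1.21, 2.79 and 3.23 against 10.5, 12.3 and 20 CPM (2.54, SE 0.401, adjusted p = 0.000166). In neither gene did the groups overlap. The HOX list was chosen with earlier results of these data known, so its counts are a description and no independent support. By cluster, a division made after the values were seen, 8 of 11 HOXA, 4 of 7 HOXB, 0 of 5 HOXC and 0 of 4 HOXD genes were called higher. Of the tested genes of chromosome 7, which holds the HOXA cluster, 29.9% were called higher, and the part of the chromosome in the HOXA calls was not tested. HOXB13 went the other way, from 2.55, 3.72 and 5.18 CPM to 0 counts in the 3 long-term knockdown libraries, at least 28.4-fold lower against a floor of 3 counts over the group.

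The other comparisons gave fewer calls of HOX genes. After short-term knockdown 1 was called higher and 1 lower, beside 5.62% and 4.71% of all genes. HOXB13 fell from 4.06 ± 0.893 to 0.812 ± 0.403 CPM (SD, n = 3; adjusted p = 0.00195), and HOXB6 rose by 1.09 on the log2 scale (adjusted p = 0.0299), a call lost without replicate 1, 2 or 3 of the nontarget cells (0.0715, 0.132 and 0.0614) or replicate 1 of the knockdown cells (0.121) and with DESeq2 in place of edgeR (0.0716). In ageing nontarget cells 0 were called higher and 5 lower, beside 3.17% and 4.38% of all genes, among them HOXA11, from 4.53 ± 0.400 to 2.05 ± 0.331 CPM (−1.15, adjusted p = 0.00871). In ageing knockdown cells 8 were called higher, all of them HOXA genes, and 2 lower, beside 11.5% and 15.2% of all genes. For the interaction 5 HOXA genes were called higher and HOXB13 lower, beside 4.98% and 8.43% of all genes. The HOXA cluster is on chromosome 7, as EZH2 is, and overlapping antisense genes (HOXA-AS2, HOXA-AS3 and HOXA11-AS) cannot be told apart from it unless reads were counted by strand, which is not stated.

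The INK4 genes CDKN2A and CDKN2B encode inhibitors of the kinases that start the cell cycle and are classical targets of BMI1. CDKN2A measured 149, 188 and 244 CPM in long-term nontarget and 261, 270 and 413 CPM in long-term knockdown libraries (log2 fold change 0.70, SE 0.186, edgeR adjusted p = 0.00979). CDKN2B measured 11.5, 8.21 and 10.9 against 12.8, 16.3 and 18.1 CPM (0.61, SE 0.177, adjusted p = 0.0146). Neither pair of groups overlapped, and neither gene was called short-term. The CDKN2B call was lost without replicate 2 of the nontarget cells (0.081) or replicate 2 or 3 of the knockdown cells (0.0501 and 0.0554). In ageing knockdown cells CDKN2B rose by 0.64 (adjusted p = 0.0128, and 0.0503 without replicate 3 of the short-term knockdown cells). Both genes overlap the noncoding gene CDKN2B-AS1.

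CDKN1C, an imprinted inhibitor of cyclin-dependent kinases, changed in opposite directions. It measured 42.0, 39.0 and 68.0 CPM in short-term nontarget and 103, 92.8 and 257 CPM in short-term knockdown libraries, and 79.5, 88.6 and 166 against 20.8, 18.6 and 34.8 CPM in long-term cells. The rise short-term was 1.60 on the log2 scale (adjusted p = 0.0286, but 0.102 and 0.0956 without replicate 1 or 2 of the nontarget cells, 0.14 with no filter on low counts and 0.119 with only the 2 groups in the fit), and the long-term fall was 2.19 (log2 fold change −2.19, adjusted p = 0.00226). The third library was the highest of each group.

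Among 62 other genes listed as Polycomb targets, the 3 inhibitors included, 37 were tested, and calls went in both directions. After long-term knockdown 8 were called higher and 14 lower, beside 13.7% and 15.8% of all genes, and in ageing knockdown cells 11 higher and 8 lower, beside 11.5% and 15.2%. WNT5A, a secreted signal, measured 4.69, 3.56 and 3.62 CPM in long-term nontarget and 20.3, 21.1 and 23.1 CPM in long-term knockdown libraries (2.43, edgeR adjusted p = 6.05e-08), having fallen from 14.5 ± 2.15 CPM in short-term nontarget cells (SD, n = 3; −1.86, adjusted p = 1.32e-05). SOX9, a developmental transcription factor, rose from 2.53, 1.61 and 2.12 to 10.3, 13.5 and 17.1 CPM in ageing knockdown cells (2.67, adjusted p = 7.32e-07), and SIX2, a nephron progenitor factor, from 0.633, 0.731 and 2.12 to 7.51, 4.55 and 12.7 CPM (2.88, adjusted p = 6.84e-05). BMP4, a secreted growth factor, fell from 5.57, 6.58 and 5.49 to 1.04, 0.147 and 1.02 CPM (−2.95, adjusted p = 1.13e-05). HAND2 fell with long-term knockdown from 49 counts over the 3 libraries to 7 (−2.72, adjusted p = 0.00287).

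In ageing nontarget cells, where EZH2 fell, 5 of the 37 were called higher and 2 lower, beside 3.17% and 4.38% of all genes. The homeobox gene PITX1 rose from 2.32, 1.52 and 0.786 to 6.97, 9.45 and 10.5 CPM (2.5, adjusted p = 0.000175), LHX2 from 7.96 ± 1.33 to 18.3 ± 4.04 CPM (1.2, adjusted p = 0.000539) and GATA2 from 7.90 ± 0.391 to 16.8 ± 3.72 CPM (SD, n = 3; 1.09, adjusted p = 0.00564). After short-term knockdown 2 were called higher and 3 lower, beside 5.62% and 4.71% of all genes. TBX2 fell from 3.59 ± 0.717 to 1.19 ± 0.278 CPM (−1.60, adjusted p = 0.00905), and GATA2 from 7.90 ± 0.391 to 4.29 ± 1.08 CPM (−0.88, adjusted p = 0.0424), a call lost without replicate 1, 2 or 3 of the nontarget cells (0.0977, 0.124 and 0.0909) or replicate 1 or 2 of the knockdown cells (0.0815 and 0.163).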

How the data were processed

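The authors prepared polyA libraries with a TruSeq RNA v2 kit, sequenced them on a MiSeq, used fastp for trimming, STAR in 2-pass mode for mapping to GRCh38, and counted reads per gene with featureCounts; versions, the annotation release and the strand setting were not given in the sources used here. The deposited values used have the unit count, raw reads per gene ID in 1 table, which differed in 0 values from the authors' per-library files. The 12 columns of normalized values were not used.

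Groups came from the sample labels. IDs were matched to GENCODE 29 symbols. Counts were fitted in R 4.3.3 with edgeR 4.0.16 (filterByExpr by group, TMM, robust quasi-likelihood, prior count 0.125) in 1 model of the 12 libraries with a term per group. A gene was called at a two-sided Benjamini-Hochberg adjusted p below 0.05 over 13959 genes, which hold 99.8% of the counts, with no limit on fold. The SE is the log2 fold change over the square root of F. The biological coefficient of variation was 12%, and replicates differed by more than counting error. Labels do not say what a replicate number stands for. Same-numbered libraries deviated together in the data between long-term knockdown and nontarget cells (r of 0.123 to 0.458 in the 3 pairs) and between long-term and short-term knockdown cells (0.223 to 0.455), so the number was taken to pair these, but not short-term knockdown with nontarget (0.0172 to 0.111) or long-term with short-term nontarget cells (−0.034 to 0.0767). Scripts were tested on simulated data.

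The 9 members and the gene lists, written from general knowledge, were chosen with earlier results of these data known. Besides members and FLCN, the rule for named genes took, per comparison, up to 6 Polycomb or opposing genes and up to 5 target genes of the largest called change with groups that did not overlap (for the interaction, in at least 1 knockdown comparison), the INK4 genes, CDKN1C, E2F1, MKI67, PCNA and MCM2, and the 3 most alike profiles; the remaining called genes DCAF7, PHC3, FOXK2, ASXL2 and PCGF3 and those of small counts were named after their values were seen. Exon lengths are unions of annotated exons, and correlations used log2(CPM + 0.5). Alternatives were RLE factors, DESeq2 1.42.0, other filters, a fit of only the groups compared, a block for the replicate number, a 2.5-fold limit, the per-library files, BMI1 summed with its readthrough gene, and leaving out each library.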

Additional observations from a re-analysis of the deposited data

Results flagged for a closer look

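The effect of knockdown differed between short-term and long-term cells by the interaction test (edgeR quasi-likelihood, adjusted p below 0.05) for 16 of the members and listed genes named. Listed genes were named largely because a change was called, so this count is not a share of the lists. Of all tested genes 4.98% were called higher and 8.43% lower for the interaction. Among regulators the difference in log2 fold change, long-term minus short-term, was 0.56 for EZH2, 0.98 for KMT2A, 0.89 for KMT2C, 0.63 for L3MBTL2, 0.53 for DCAF7 and −0.60 for PHF19. For EZH2 the 3 long-term nontarget libraries (52.4 to 60.6 CPM) were the ones apart from the other 9. For L3MBTL2 the call was lost without replicate 1 or 3 of the short-term nontarget cells (adjusted p = 0.0854 and 0.0525), replicate 1 of the short-term knockdown cells (0.0731), replicate 2 of the long-term nontarget cells (0.061) or replicate 2 of the long-term knockdown cells (0.0588), and with no filter on low counts (0.0516).

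Among targets the difference was 2.19 for HOXA5, 2.04 for HOXA11, 2.40 for WNT5A, 2.18 for SOX9, −0.94 for PAX8, −1.16 for LHX2, −2.50 for BMP4, −3.67 for HAND2 and −3.79 for CDKN1C, which rose short-term and fell long-term. For HOXB13 the fitted difference was −5.40, which depends on the prior count because long-term knockdown cells had 0 counts. Single outlying values in these groups of 3 libraries were not tested.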

How the results depend on the processing

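Over 630 recomputed values of the 9 members, 0 called values changed sign, 10 were newly called and 10 no longer called, and 21 uncalled values changed sign. RLE factors moved the median of all genes by at most −0.00408. With the replicate number as a block, 4 members were called after long-term knockdown instead of 1 (EZH2, with JARID2 at adjusted p = 0.0211, RING1 at 0.0421 and BMI1 at 0.0485), while 17.4% and 19.4% of all genes were called higher and lower instead of 13.7% and 15.8%. CBX8 passed in ageing nontarget cells (0.0298), and the other Polycomb genes called were 16 instead of 11 after long-term knockdown, 12 instead of 9 in ageing knockdown cells (15.8% and 18.6% of all genes called higher and lower), 1 in ageing nontarget cells (5.7% and 7.1%) and 6 for the interaction (8.58% and 12%). The block lost no call of a named gene in the comparisons whose numbers were taken to pair, and 10 of 12 libraries correlated best with their own number. Of the other Polycomb genes called short-term, 2 were higher with the block (9.15% of all genes), 1 with no filter and 1 with only the 2 groups. Without a filter on low counts 2 members were called after long-term knockdown. In ageing knockdown cells 1 member was called among genes of a mean of at least 10 CPM, a filter that CBX8 did not pass, and 1 in the fit of only those 2 groups. A limit of 2.5-fold left 0 members in each comparison, and of the other Polycomb genes 0 after short-term knockdown, 1 after long-term knockdown, and 0 in ageing knockdown cells and for the interaction. Leaving out 1 library gave 0 to 1 members called short-term, 1 to 3 long-term, 2 in ageing nontarget cells, 1 to 2 in ageing knockdown cells and 1 for the interaction. For the other Polycomb genes these fits called 2 to 3 short-term, 8 to 14 long-term, 0 to 1 in ageing nontarget cells, 5 to 11 in ageing knockdown cells and 2 to 5 for the interaction. The share of all genes called with the 2.5-fold limit, other filters, only 2 groups or 1 library left out is not given here. Counts from those fits therefore cannot be read as particular to the members or the lists. The cause of these shifts was not tested. EZH1, JARID2, CBX2, CBX8 and BMI1 rest on 45 to 156 counts per library, and their precision is that of the intervals given. RNA levels say nothing of protein or of the histone marks.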
